A study of Homo sapiens with 6 samples.

Results

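Ribosome biogenesis factors are the nucleolar proteins that transcribe, cut, modify and fold ribosomal RNA and load ribosomal proteins onto it. The set described here held 34 of them, chosen by gene symbol from a table of 54261 symbols, and all 34 symbols were rows of that table. The samples were PC9/GR cells, a human lung cancer line. The parent line PC9 is known as a lung adenocarcinoma line that depends on the epidermal growth factor receptor. PC9/GR is a separate name, the sample titles do not spell out GR, and whether these cells keep that dependence was not tested. Of the 6 libraries, 3 came from cells given siRNA directed at the antisense long non-coding RNA MYLK-AS1 (si-MYLK-AS1), and 3 from cells given a control siRNA (si-NC). Every sample was PC9/GR with no other agent named, and no siRNA sequence, dose or harvest time was stated.

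In human cells RNA polymerase I makes a long precursor of ribosomal RNA in the nucleolus. Small nucleolar ribonucleoproteins (snoRNPs) modify and cut this precursor, a large assembly called the small subunit processome builds the small subunit, and a separate line of factors builds the large subunit. Many of these genes are textbook targets of the transcription factor MYC, which binds the DNA letters CACGTG (the E-box), and demand for them is high in growing tumour cells.

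Of 33 ribosome biogenesis factors that could be tested, 23 rose in si-MYLK-AS1 cells, 1 fell and 9 did not pass the test. In each library the test rests on reads per gene, given below as CPM, reads relative to the scaled library total, and a gene was called at an adjusted p under 0.05 by edgeR's quasi-likelihood test with Benjamini-Hochberg adjustment over 15391 genes. Of all genes tested, 21.3% rose and 20.7% fell, so the 69.7% of the set that rose stands beside a background of 21.3%. Among the 9256 tested genes in the set's own range of mean level, 27.6% rose. The median log2 fold change, si-MYLK-AS1 over si-NC, was 0.50 over the set and -0.0005 over all tested genes. The increases were moderate: 14 of the 23 were at least 1.5-fold and 2, RRS1 and RRP12, at least 2-fold, a size that 4.20% of all tested genes reached upward. None fell by as much, which 7.35% of all tested genes did.

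**Figure D1:**
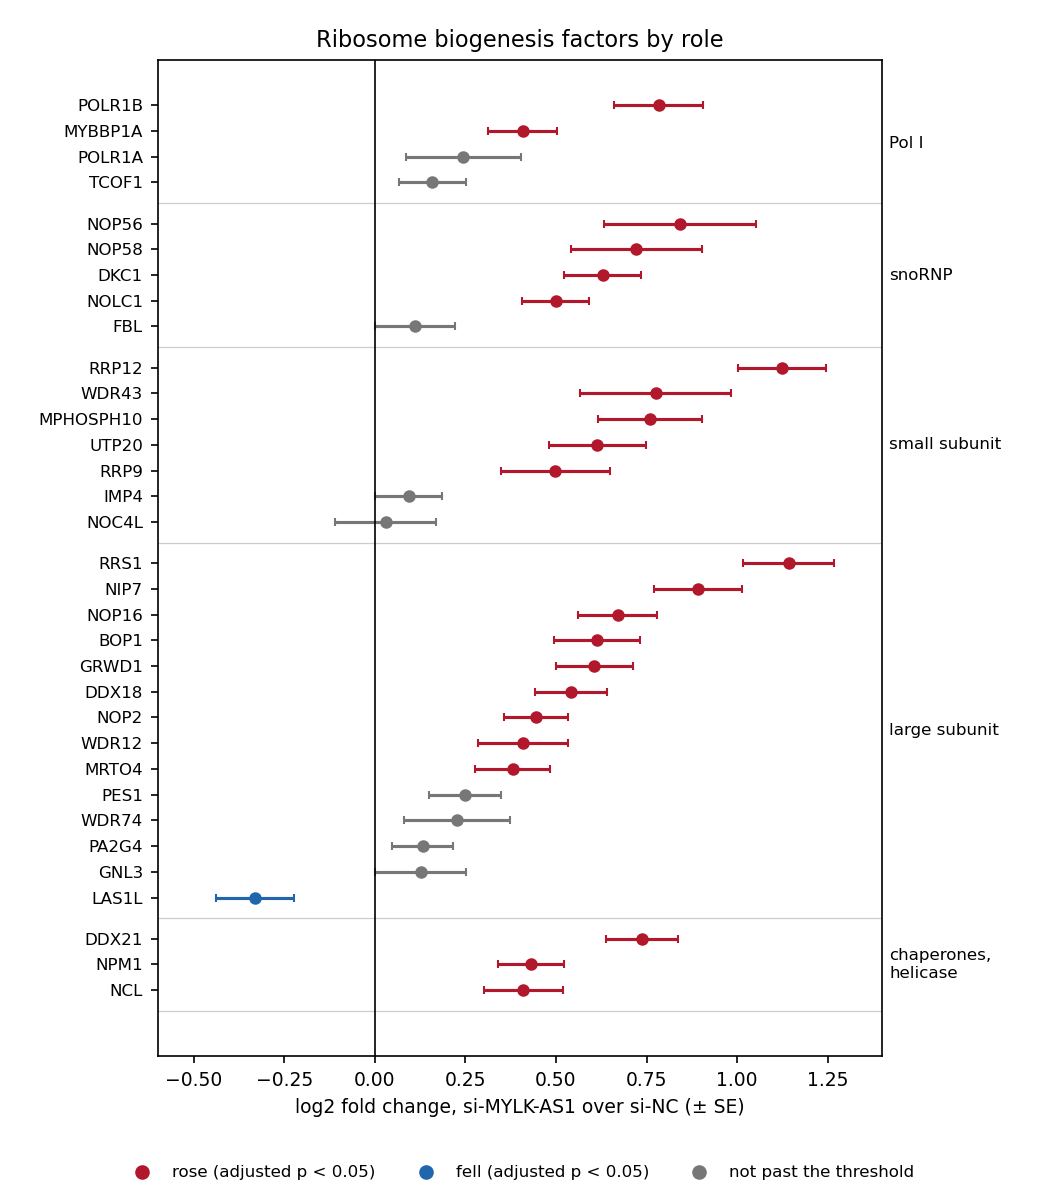
Log2 fold change (si-MYLK-AS1 over si-NC, x axis) of 33 ribosome biogenesis factors, grouped by role down the page; points are edgeR estimates and bars are ± SE. All points but LAS1L lie above 0, and RRS1 (1.14) and RRP12 (1.12) lie farthest to the right.

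The targeted RNA was lower in the knockdown. MYLK-AS1 had 0, 5 and 4 reads in si-MYLK-AS1 replicates 1 to 3, against 20, 16 and 19 reads in si-NC replicates 1 to 3 (log2 fold change -2.43, standard error 0.60, adjusted p = 0.00326 by edgeR's quasi-likelihood test). MYLK, the gene it is named after, also fell, at 27.6 CPM in si-MYLK-AS1 cells and 44.5 CPM in si-NC cells. Its log2 fold change was -0.69 (standard error 0.13, adjusted p = 0.000464 by the same test), and its groups did not overlap. Library totals were 11055408, 9530332 and 7551303 reads in si-MYLK-AS1 replicates 1 to 3 and 8867818, 10246759 and 10978513 reads in si-NC replicates 1 to 3. The labels do not say that repeats were separate cultures, so p-values cover only the spread among these libraries, and that spread may be technical. Keratins were abundant, but the epithelial markers did not all move one way. Of 8 tested genes in the list of epithelial and lung adenocarcinoma markers, 5 fell (KRT8, KRT18, KRT7, CDH1 and EPCAM) and KRT19 rose. KRT8 averaged 2623 CPM in si-MYLK-AS1 cells and 4160 CPM in si-NC cells (adjusted p = 3.4e-05), KRT19 averaged 109 CPM in si-MYLK-AS1 cells and 84.04 CPM in si-NC cells (adjusted p = 0.00816), and EPCAM was low at 0.570 CPM in si-MYLK-AS1 cells and 1.497 CPM in si-NC cells (adjusted p = 0.0199). The list summed to 7626 to 8229.5 CPM in si-MYLK-AS1 libraries and 11849 to 13871 CPM in si-NC libraries. The lung adenocarcinoma markers were weak: NKX2-1 stayed under 1 CPM in every library, SFTPB was listed at 0, and EGFR averaged 3.36 ± 0.539 CPM in si-MYLK-AS1 cells and 2.46 ± 0.807 CPM in si-NC cells (SD, n = 3 each). PTPRC and CD3E, markers of blood cells, had no read in any library, and PECAM1, VWF, COL3A1 and HBB averaged under 1 CPM in both groups. Of 3 tested markers of other cell types, CD68, a lysosomal protein used as a macrophage marker, rose, at 285 CPM in si-MYLK-AS1 cells and 193 CPM in si-NC cells (log2 fold change 0.56, adjusted p = 0.00141). ACTA2, smooth muscle actin, fell, at 13.1 CPM in si-MYLK-AS1 cells and 33.7 CPM in si-NC cells (log2 fold change -1.37, adjusted p = 8.87e-07), and COL1A1, a collagen of fibroblasts, did not pass, at 26.1 CPM in si-MYLK-AS1 cells and 23.7 CPM in si-NC cells. The markers of other cell types summed to 297 to 342 CPM in si-MYLK-AS1 libraries and 222 to 304 CPM in si-NC libraries. The part of either list in the results on ribosome biogenesis factors was not tested. In bulk samples, fewer cells of a type and less RNA per cell cannot be told apart. Library 3 of si-MYLK-AS1 stood apart in short non-coding RNAs (RN7SK, RN7SL1, RN7SL2, RMRP and RPPH1), which took 0.00834%, 0.0111% and 0.0426% of reads in si-MYLK-AS1 replicates 1 to 3 and 0.00173%, 0.00171% and 0.00189% in si-NC replicates 1 to 3. Without that library 21 of the 33 factors rose and 1 fell.

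The set as a whole took a larger share of the reads in the knockdown. Its rows held 0.409%, 0.413% and 0.437% of all reads in si-MYLK-AS1 replicates 1 to 3, against 0.329%, 0.329% and 0.336% in si-NC replicates 1 to 3. The median factor lay 0.39, 0.45 and 0.58 (log2) above the si-NC mean in si-MYLK-AS1 replicates 1 to 3. All 3 knockdown libraries were thus raised, replicate 3 the most, and 20 of the 33 factors had their highest knockdown value there. Values of the groups did not overlap, with the knockdown higher, for 26 of the 33, against 26.1% of all tested genes. An exact permutation test of 3 against 3 libraries cannot give less than p = 0.1, so single genes were called only by the fit across all genes.

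**Figure D2:**
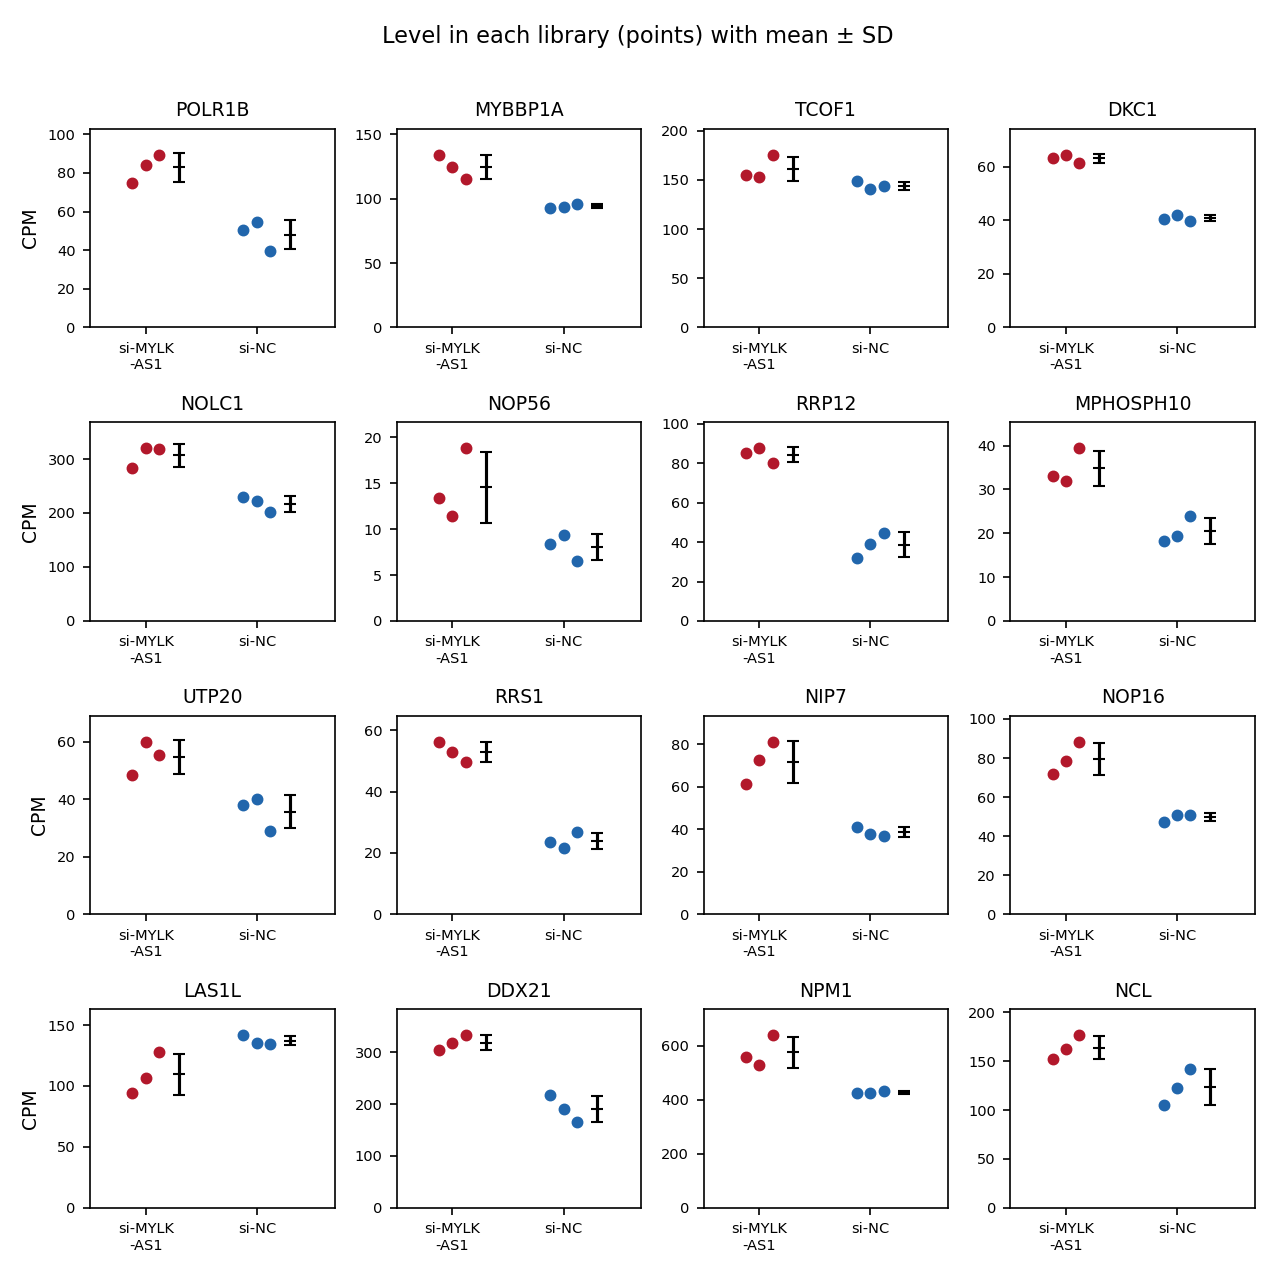
Level in CPM (y axis, from 0) of 16 ribosome biogenesis factors in each library; points are libraries, si-MYLK-AS1 left and si-NC right, and bars are mean ± SD. The groups do not overlap in any panel, and LAS1L is the panel in which the knockdown is the lower group.

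Polymerase I genes and their regulators came first in the pathway, and 2 of 4 rose. For this and the next role groups, the share that rose over all tested genes was 21.3%. The groups hold 3 to 14 tested genes each, and differences between them were not tested. POLR1B, the second-largest subunit of RNA polymerase I, had 74.8, 84.3 and 89.4 CPM in si-MYLK-AS1 replicates 1 to 3, against 50.3, 54.3 and 39.6 CPM in si-NC replicates 1 to 3. Every knockdown library was above every control library, and the log2 fold change was 0.78 (standard error 0.12, adjusted p = 6.96e-05 by edgeR). MYBBP1A, a nucleolar MYB-binding protein that takes part in rRNA processing and transcription, had 134, 125 and 115 CPM in the knockdown and 92.8, 93.4 and 95.9 CPM in the control (log2 fold change 0.41, standard error 0.09, adjusted p = 0.00213). Its control values were the tighter group and lay below all knockdown values. POLR1A, the largest subunit of the same polymerase, averaged 81.9 ± 11.6 CPM in si-MYLK-AS1 cells and 69.3 ± 16.4 CPM in si-NC cells (SD, n = 3 each). Its groups overlapped and its log2 fold change of 0.24 (standard error 0.16, adjusted p = 0.236) did not pass. TCOF1, the nucleolar scaffold treacle that helps to start rDNA transcription, had 155, 153 and 176 CPM in the knockdown and 148, 140 and 144 CPM in the control. These groups stood apart by a small margin, with a log2 fold change of 0.16 (standard error 0.09, adjusted p = 0.179).

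Proteins of the snoRNPs rose in 4 of 5 cases. DKC1, the pseudouridine synthase of box H/ACA snoRNPs and a telomerase component, had 63.3, 64.6 and 61.6 CPM in si-MYLK-AS1 replicates 1 to 3, against 40.7, 42.0 and 39.8 CPM in si-NC replicates 1 to 3 (log2 fold change 0.63, standard error 0.11, adjusted p = 0.000146). Both groups were tight and far apart. NOLC1, which chaperones snoRNPs on their way to the nucleolus, had 283, 320 and 318 CPM in the knockdown and 229, 222 and 201 CPM in the control (log2 fold change 0.50, standard error 0.09, adjusted p = 0.000302). NOP56 and NOP58 are the paired core proteins of box C/D snoRNPs, which guide methylation of rRNA. NOP56 had 13.4, 11.4 and 18.8 CPM in the knockdown and 8.34, 9.35 and 6.50 CPM in the control (log2 fold change 0.84, standard error 0.21, adjusted p = 0.00362). NOP58 averaged 12.6 ± 0.857 CPM in si-MYLK-AS1 cells and 7.63 ± 0.824 CPM in si-NC cells (SD, n = 3 each). Its log2 fold change was 0.72 (standard error 0.18, adjusted p = 0.00383). FBL, fibrillarin, the methyltransferase of the same particles, averaged 595 ± 67.8 CPM in the knockdown and 551 ± 79.9 CPM in the control, and the groups overlapped (log2 fold change 0.11, standard error 0.11, adjusted p = 0.445). Whether FBL differed in its response from NOP56 and NOP58 was not tested.

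Of the 7 factors of the small subunit, 5 rose. RRP12, known in yeast for export of pre-ribosomes, had 85.2, 87.7 and 80.4 CPM in si-MYLK-AS1 replicates 1 to 3, against 32.1, 39.2 and 44.8 CPM in si-NC replicates 1 to 3. The gap between the groups was wider than the spread within either, and the log2 fold change was 1.12 (standard error 0.12, adjusted p = 1.31e-06), at rank 350 by p among all genes tested. RRP12 (ENSG00000052749.13) lies on the minus strand of chromosome 10 from 97356358 to 97426076 (GRCh38). MPHOSPH10, a U3 snoRNP protein of the processome, had 33.1, 31.9 and 39.5 CPM in the knockdown and 18.2, 19.3 and 23.9 CPM in the control (log2 fold change 0.76, standard error 0.14, adjusted p = 0.000385). UTP20, a large scaffold protein of the processome, had 48.5, 60.1 and 55.3 CPM in the knockdown and 37.9, 39.99 and 29.1 CPM in the control (log2 fold change 0.61, standard error 0.13, adjusted p = 0.00138). In both genes the lowest knockdown library was above the highest control library. WDR43, a processome protein, had a log2 fold change of 0.78 (standard error 0.21, adjusted p = 0.0066), and RRP9, a U3-specific protein, one of 0.50 (standard error 0.15, adjusted p = 0.0132). WDR43 was just outside the threshold without si-MYLK-AS1 replicate 2 (log2 fold change 0.60, adjusted p = 0.0509), and RRP9 did not pass without si-MYLK-AS1 replicate 3 (0.35, adjusted p = 0.0682). IMP4, the partner of MPHOSPH10 in the processome, had a log2 fold change of 0.09 (standard error 0.09, adjusted p = 0.449) and NOC4L, a small subunit maturation factor, one of 0.03 (standard error 0.14, adjusted p = 0.884).

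The large subunit line was the largest group, and 9 of 14 tested factors rose, 1 fell and 4 did not pass. RRS1, which helps to bring the 5S RNA and its proteins into the growing large subunit, had 56.3, 52.9 and 49.6 CPM in si-MYLK-AS1 replicates 1 to 3, against 23.5, 21.7 and 26.8 CPM in si-NC replicates 1 to 3. This was the greatest fold change of the set (log2 1.14, standard error 0.13, adjusted p = 1.55e-06), and the groups were well apart. NIP7, required for rRNA maturation and known in yeast as a large subunit factor, had 61.4, 72.4 and 81.2 CPM in the knockdown and 41.2, 38.0 and 36.6 CPM in the control (log2 fold change 0.89, standard error 0.12, adjusted p = 1.63e-05). NOP16, a nucleolar protein of the early large subunit precursor, had 71.8, 78.3 and 88.5 CPM in the knockdown and 47.5, 51.0 and 51.1 CPM in the control (log2 fold change 0.67, standard error 0.11, adjusted p = 9.67e-05). For NIP7 and NOP16 the knockdown spread was the wider, with replicate 3 highest, and no values overlapped.

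The PeBoW complex, made of PES1, BOP1 and WDR12 and needed to process large subunit rRNA, was raised in 2 of its 3 genes. BOP1 averaged 50.8 ± 1.17 CPM in si-MYLK-AS1 cells and 33.2 ± 3.32 CPM in si-NC cells (SD, n = 3 each). Its log2 fold change was 0.61 (standard error 0.12, adjusted p = 0.000492). WDR12 averaged 64.9 ± 10.4 CPM in the knockdown and 48.8 ± 3.47 CPM in the control (log2 fold change 0.41, standard error 0.12, adjusted p = 0.0132), and this call was lost without si-MYLK-AS1 replicate 3 (adjusted p = 0.0646). PES1 averaged 129 ± 6.60 CPM in the knockdown and 108 ± 11.3 CPM in the control, with no overlap, and its adjusted p of 0.0513 (log2 fold change 0.25, SE 0.10) was just outside the threshold. With 1 library left out its adjusted p ran from 0.0101 (log2 fold change 0.33), without si-NC replicate 3, to 0.251 (0.17), without si-NC replicate 1, and it passed in the first case alone.

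Among the remaining large subunit factors, 4 rose. GRWD1, a histone-binding protein of pre-ribosomes, had a log2 fold change of 0.61 (SE 0.11), DDX18, an RNA helicase, 0.54 (SE 0.10), NOP2, an rRNA methyltransferase, 0.44 (SE 0.09), and MRTO4, which holds the place of a stalk protein, 0.38 (SE 0.10). Their adjusted p by edgeR ran from 0.000197 for GRWD1 to 0.00682 for MRTO4. WDR74 (0.23, adjusted p = 0.225), PA2G4 (0.13, adjusted p = 0.221) and the nucleostemin gene GNL3 (0.13, adjusted p = 0.453) had positive log2 fold changes that did not pass. PPAN, a large subunit factor, was listed at 0 reads in every library and was not tested, while the readthrough gene PPAN-P2RY11, with which it shares 56.0% of its exon bases, had 59, 31 and 39 reads in si-MYLK-AS1 replicates 1 to 3 and 30, 23 and 41 reads in si-NC replicates 1 to 3.

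LAS1L was the single factor that fell. It is the endonuclease that, with the kinase NOL9, cuts the spacer next to the large subunit rRNA. Levels were 94.1, 107 and 127 CPM in si-MYLK-AS1 replicates 1 to 3, against 142, 135 and 135 CPM in si-NC replicates 1 to 3 (log2 fold change -0.33, standard error 0.11, adjusted p = 0.0193). The groups did not overlap, but the call was lost when si-MYLK-AS1 replicate 1 (adjusted p = 0.119), si-MYLK-AS1 replicate 2 (0.0737) or si-NC replicate 1 (0.0568) was left out. LAS1L (ENSG00000001497.16) lies on the minus strand of chromosome X from 65512582 to 65534775. Its known partners, named after their values were seen, went several ways. NOL9 had a log2 fold change of 0.58 (standard error 0.20, adjusted p = 0.0263) and TEX10 one of 0.62 (standard error 0.12, adjusted p = 0.000505), so both rose. The SUMO protease SENP3 fell (-0.465, standard error 0.18, adjusted p = 0.0448), and PELP1 did not pass (0.15, standard error 0.10, adjusted p = 0.268).

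The abundant nucleolar proteins NPM1, NCL and DDX21 all rose. NPM1, nucleophosmin, a chaperone of the nucleolus and of centrosomes, had 559, 530 and 640 CPM in si-MYLK-AS1 replicates 1 to 3, against 424, 423 and 434 CPM in si-NC replicates 1 to 3 (log2 fold change 0.43, standard error 0.09, adjusted p = 0.00108). NCL, nucleolin, which binds pre-rRNA and chromatin, had 153, 163 and 177 CPM in the knockdown and 105, 123 and 142 CPM in the control (log2 fold change 0.41, standard error 0.11, adjusted p = 0.00551). The control libraries of NCL were the more spread, and the lowest knockdown library was only slightly above the highest of them. DDX21, an RNA helicase of the nucleolus, had 305, 317 and 333 CPM in the knockdown and 217, 191 and 166 CPM in the control (log2 fold change 0.74, standard error 0.10, adjusted p = 1.64e-05). All its knockdown values were well above all its control values. NPM1 has 45 annotated pseudogenes that carry its name, so its reads may be shared with copies.

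The start sites of these genes were searched for the E-box. Windows of 300 bases, 250 before and 50 after the annotated start, came from RefSeq on GRCh38.p14, and 26 of the 34 factors had at least 1. The letters CACGTG, the same on both strands, were found in a window of 11 of the 26 (42.3%), against 12.5% of 9705 tested genes with a window and 29.2% of 106 other ribosome biogenesis genes with one. The set was chosen as factors many of which are driven by MYC, so its share of E-boxes is a description and no independent result. All 11 had a copy that began within 40 bases of the start, a distance chosen after the positions were seen, against 32.5% of the 1216 tested genes that held the letters and 4.07% of all tested genes with a window. Inside the set, among factors with a window, the letters were found in 7 of 16 that rose and in 4 of 8 that did not pass. This difference was not tested. The factors without a window were RRS1, RRP12, BOP1, NOP58, MPHOSPH10, DDX18 and NOLC1, which rose, and TCOF1, which did not pass. The comparison thus leaves out RRS1 and RRP12, the factors with the greatest fold changes. The windows of the 3 factors that rose with the lowest p among those with a match are given, with the E-box in capitals, to show where it sits.
DDX21 (chr10:68956397-68956696, plus strand): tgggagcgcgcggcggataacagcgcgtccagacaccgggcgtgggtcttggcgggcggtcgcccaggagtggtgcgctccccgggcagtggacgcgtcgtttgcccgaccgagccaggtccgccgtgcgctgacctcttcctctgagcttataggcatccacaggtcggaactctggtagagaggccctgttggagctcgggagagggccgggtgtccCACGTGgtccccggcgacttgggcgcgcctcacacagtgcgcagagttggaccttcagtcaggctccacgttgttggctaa
NOP2 (chr12:6568242-6568541, minus strand): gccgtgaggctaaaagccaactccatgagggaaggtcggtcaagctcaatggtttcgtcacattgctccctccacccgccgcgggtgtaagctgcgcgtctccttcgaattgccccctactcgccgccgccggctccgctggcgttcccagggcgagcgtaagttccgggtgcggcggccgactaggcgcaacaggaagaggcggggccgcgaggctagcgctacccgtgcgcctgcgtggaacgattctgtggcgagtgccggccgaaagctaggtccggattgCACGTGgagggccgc
UTP20 (chr12:101279855-101280154, plus strand): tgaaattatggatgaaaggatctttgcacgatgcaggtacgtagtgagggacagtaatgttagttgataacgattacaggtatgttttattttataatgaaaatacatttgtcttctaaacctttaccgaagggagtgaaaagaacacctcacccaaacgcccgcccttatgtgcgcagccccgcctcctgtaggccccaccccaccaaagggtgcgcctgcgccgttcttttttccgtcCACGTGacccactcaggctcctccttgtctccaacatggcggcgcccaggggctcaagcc
In these windows the E-box begins 31 bases before the start of DDX21, 35 bases after that of NOP2 and 10 bases before that of UTP20. DDX21 has a window at another annotated start with no match. MYC itself was higher in the knockdown, at 232, 224 and 237 CPM in si-MYLK-AS1 replicates 1 to 3, against 146, 143 and 170 CPM in si-NC replicates 1 to 3 (log2 fold change 0.59, standard error 0.09, adjusted p = 6.73e-05). Of 10 tested genes of the MYC, MAX and MXD network, MYC included, 4 rose (40%) and 1 fell (10%), against 21.3% and 20.7% of all tested genes. The list mixes MYC with genes known to oppose it, such as the MXD genes, so its count gives no direction for MYC activity. MLXIP (log2 fold change 0.48, SE 0.10), MXD1 (0.89, SE 0.20) and MXD4 (0.54, SE 0.13) were the others that rose. MXD3 fell (-2.40, standard error 0.19, adjusted p = 2.84e-08 by edgeR), and MAX was listed at 0 reads in every library. The part of MYC and of these genes in the change of the set was not tested.

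Levels per length differed widely within the set, on the scale of CPM per kilobase of annotated exon. FBL stood highest, at 274 ± 31.2 in si-MYLK-AS1 cells and 254 ± 36.8 in si-NC cells (SD, n = 3 each). NPM1 came next at 151 ± 14.9 in the knockdown and 112 ± 1.54 in the control. NOP56 was the lowest of those with reads, at 2.70 ± 0.711 in the knockdown and 1.49 ± 0.268 in the control, although it forms the same particle as FBL. Genes that carry a snoRNA gene within their body numbered 7 in the set (NOP56, NOP58, DKC1, WDR43, PPAN, GNL3 and NCL). The 6 with reads had a median of 6.12 CPM per kilobase in si-NC cells, against 14.9 for the 27 without a snoRNA gene inside. Among cytosolic ribosomal protein genes the same split gave 39.0 for 28 genes with a snoRNA gene inside and 159 for 51 without. No source used here says how reads that meet both a host gene and its snoRNA were counted, and its part in the levels of these 7 genes was not tested. The changes were seen on both sides of the split, with 5 of 6 hosts and 18 of 27 other factors raised, at median log2 fold changes of 0.67 and 0.44.

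**Figure D3:**
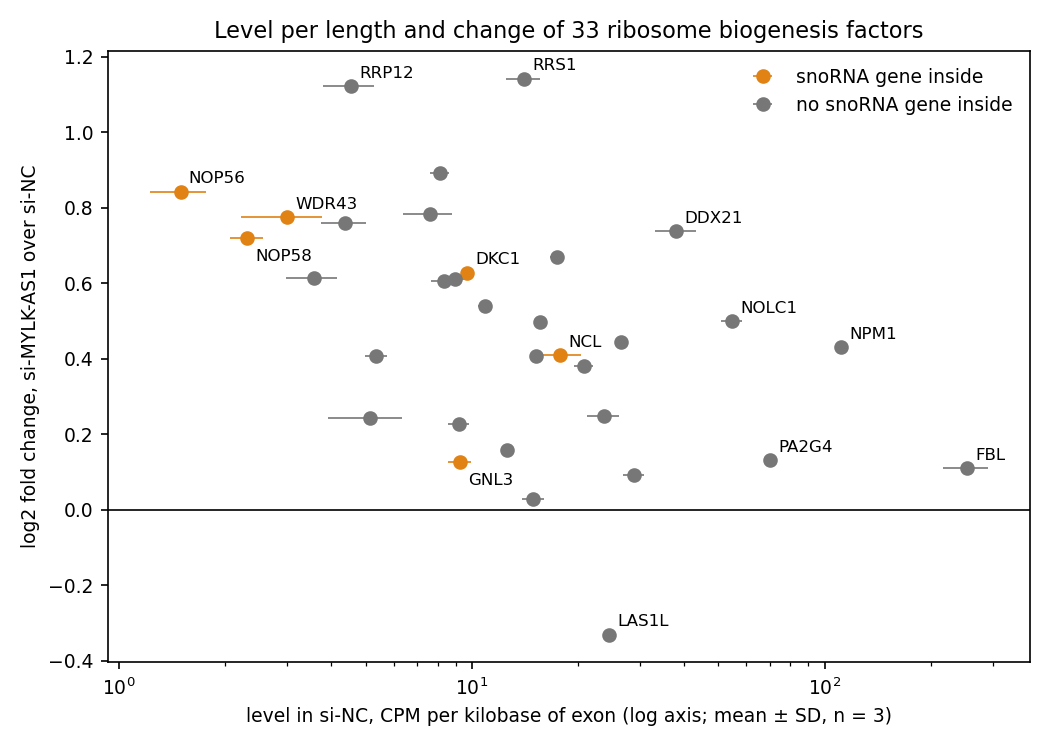
Log2 fold change (y axis, si-MYLK-AS1 over si-NC) against level in si-NC cells (x axis, CPM per kilobase of exon, log scale, mean ± SD, n = 3) for 33 ribosome biogenesis factors. Orange points have a snoRNA gene inside the host gene and grey points have none; NOP56 (1.49), NOP58 and WDR43 lie at the low end and FBL (254) at the high end.

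SnoRNA rows inside the set held few reads, and 2 had a mean of at least 10 reads a library. SNORD86, a box C/D snoRNA in NOP56, had 301, 273 and 299 reads in si-MYLK-AS1 replicates 1 to 3, against 111, 173 and 170 reads in si-NC replicates 1 to 3 (log2 fold change 1.11, standard error 0.17, adjusted p = 5.34e-05). The groups did not overlap, and SNORD86 shares 86 bases with annotated NOP56 exons, so reads of the pair cannot be told apart there. SNORD110, in the same gene, had 13, 14 and 11 reads in the knockdown and 17, 17 and 15 reads in the control (log2 fold change -0.24, standard error 0.37, adjusted p = 0.64). The other 18 snoRNA rows inside the set averaged under 10 reads a library.

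Overlap with neighbouring genes limits some values, because no source used here says whether counting used strand. The exons of NIP7 share 20.2% of their bases with COG8 on the opposite strand, and COG8 also rose (log2 fold change 0.53, standard error 0.12, adjusted p = 0.00135). Those of NOP16 share 7.93% with HIGD2A, which did not pass (-0.17, standard error 0.12, adjusted p = 0.269). Both neighbours were named after their values were seen. NOP2 shares 54.4% of its exon bases with AC006064.6, a coding gene of the same strand, that is no row of the table. Reads of such pairs cannot be fully told apart.

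The rest of the pathway, 126 tested genes of 130 listed by function, showed 69 that rose (54.8%) and 6 that fell (4.76%), with a median log2 fold change of 0.38. The background shares were 21.3% and 20.7%. Small subunit factors outside the set rose in 26 of 39 cases and fell in none. NOL6, a processome scaffold, averaged 75.5 ± 4.12 CPM in si-MYLK-AS1 cells and 37.2 ± 0.934 CPM in si-NC cells (SD, n = 3 each). Its log2 fold change was 1.02 (standard error 0.11, adjusted p = 9.62e-07). The helicase DHX37 (0.65, SE 0.10) and the processome protein DIEXF (0.84, SE 0.14) came next by p among these factors and also rose.

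Large subunit factors outside the set rose in 32 of 48 cases and fell in 3. NIFK, a nucleolar partner of the proliferation protein Ki-67, averaged 57.7 ± 7.13 CPM in the knockdown and 27.3 ± 0.891 CPM in the control (log2 fold change 1.08, standard error 0.12, adjusted p = 2.65e-06). ZNF622, whose yeast counterpart acts late in the cytoplasm, had 1.05 (SE 0.12) and the export adaptor NMD3 0.77 (SE 0.11). The helicases DDX24 (-0.66, standard error 0.10, adjusted p = 3e-05) and DDX54 (-0.40, standard error 0.14, adjusted p = 0.0314) fell with SENP3. RPF2, the partner of RRS1, named after its value was seen, rose with it (0.83, standard error 0.21, adjusted p = 0.00403).

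Polymerase I genes outside the set rose in 7 of 15 cases and fell in none. RRN3, the factor that recruits polymerase I to its promoter, averaged 103 ± 11.3 CPM in si-MYLK-AS1 cells and 51.4 ± 3.14 CPM in si-NC cells (SD, n = 3 each). Its log2 fold change was 1.00 (standard error 0.11, adjusted p = 1.35e-06). WDR75 (0.50, SE 0.11) and NOL11 (0.46, SE 0.13), processome proteins needed for rDNA transcription, rose too. For other snoRNP proteins the count was near the background, 2 of 10 up (RPAP3 at 0.59 and NUFIP1 at 0.58) and 1 down, the assembly factor ZNHIT6 (-0.84, standard error 0.17, adjusted p = 0.000812). The RNA exosome, which trims rRNA ends, also went both ways, with 2 of 14 up (DIS3 at 0.59 and its helicase SKIV2L2 at 0.53) and 2 down (EXOSC10 at -0.37 and EXOSC7 at -0.39). Cytosolic ribosomal proteins, the protein parts of the ribosome itself, rose in 25 of 79 cases (31.6%) and fell in 5, with a median of 0.17. The share that rose was 21.3% over all tested genes and 27.6% over those in the set's range of mean level.

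**Figure D4:**
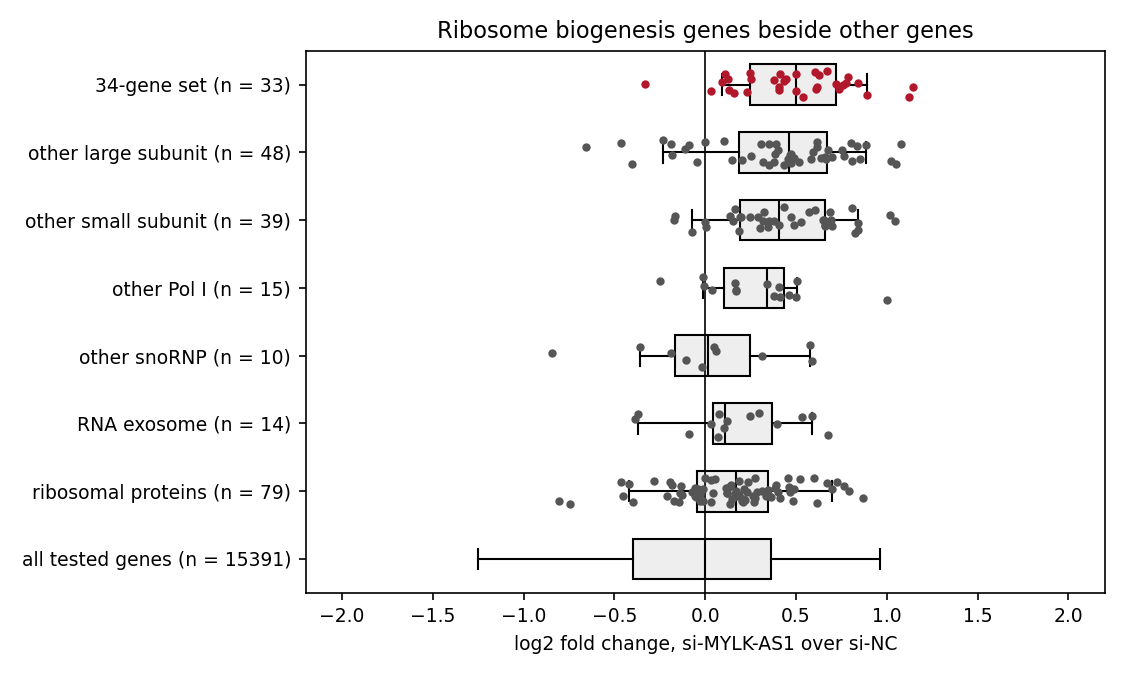
Log2 fold change (x axis, si-MYLK-AS1 over si-NC) of the ribosome biogenesis factors (top, red points), of other pathway genes by function, of cytosolic ribosomal proteins and of all 15391 tested genes. Boxes span the quartiles with the median, whiskers run from percentile 5 to 95, and points are genes; the medians are 0.50 for the set, 0.46 and 0.41 for other large and small subunit factors, 0.02 for other snoRNP proteins and -0.0005 for all tested genes.

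Precursor and mature rRNA could not be followed, since the rows RNA45S5, RNA28S5, RNA18S5 and RNA5-8S5 held 0 reads in every library. Short RNAs that process rRNA had reads, and 1 library dominated them. SNORD3A, a gene of the U3 snoRNA that the processome is built on, had 198, 254 and 1400 reads in si-MYLK-AS1 replicates 1 to 3, against 16, 31 and 22 reads in si-NC replicates 1 to 3. No values overlapped, but the log2 fold change of 5.08 (SE 1.46) did not pass (adjusted p = 0.055). RMRP, the RNA of the enzyme RNase MRP that cuts pre-rRNA, had 107, 168 and 637 reads in the knockdown and 14, 7 and 12 reads in the control (log2 fold change 5.07, standard error 1.38, adjusted p = 0.0474). RPPH1, the RNA of RNase P, which cuts pre-tRNA, had 18, 23 and 112 reads in the knockdown and 4, 3 and 3 reads in the control (adjusted p = 0.0577). SNORD118, the U8 snoRNA needed for the large subunit, went the other way with 8, 2 and 7 reads in the knockdown and 9, 11 and 13 reads in the control, and did not pass (adjusted p = 0.22). RN7SK and RN7SL1, short RNAs known for other roles and named after their values were seen, were also highest in si-MYLK-AS1 replicate 3, at 144, 129 and 318 reads and at 353, 374 and 1103 reads in the knockdown, against 18, 12 and 13 and 61, 82 and 68 reads in the control. Reads of these short RNAs thus differed with the groups beside the protein factors, and their part in the results above was not tested.

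**Figure D5:**
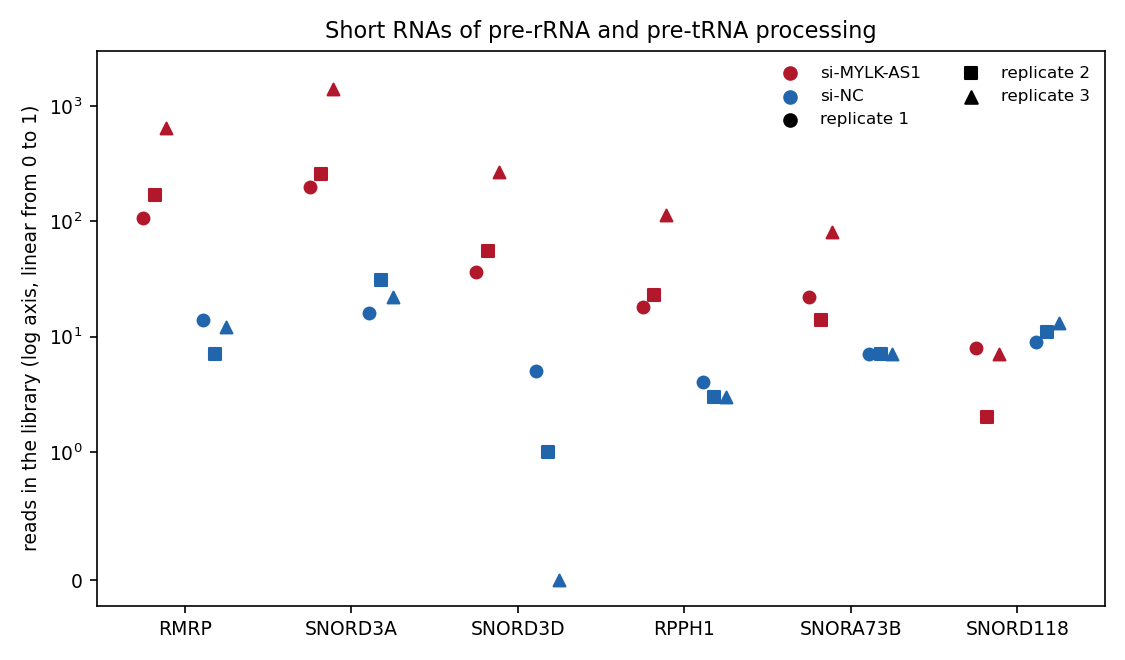
Reads per library (y axis, log scale, linear from 0 to 1) in rows of short RNAs that process rRNA or tRNA precursors; red is si-MYLK-AS1, blue is si-NC and the marker gives the replicate. Replicate 3 of si-MYLK-AS1 is the highest library for 5 of the 6 RNAs (1400 reads for SNORD3A), and SNORD118 is the exception.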

How the data were processed

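RNA-seq was run on PC9/GR cells, with Trizol extraction and Ion Proton library reagents, per the labels' protocols. The authors deposited raw read counts for each gene symbol. The genome build was GRCh38, per the submitters' processing notes, and no source used here names an aligner, counting tool, annotation or strand setting. All 6 columns carry sample titles, which gave group and replicate.

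Counts were tested with edgeR 4.0.16 in R 4.3.3 (filterByExpr, TMM factors, robust quasi-likelihood F test, two-sided), with Benjamini-Hochberg adjustment over 15391 genes and a threshold of 0.05. CPM here divide counts by the library size after TMM scaling. Standard errors were approximated as the log2 fold change over the square root of F. The coefficient of variation between replicates was 11.8%. Alternatives used limma 3.58.1 (voom) and DESeq2 1.42.0. Replicate pairs differed by more than sampling noise (chi-square per degree of freedom at least 2.25).

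Gene positions, exon lengths and overlaps came from GENCODE release 29 (GRCh38). The members and lists were chosen with earlier results of these data known, so list counts are descriptions. Values in every library are given for the 3 lowest p per role, for factors that fell and for called changes of at least 0.8 (log2). Of other lists up to 3 genes per direction are named.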

Additional observations from a re-analysis of the deposited data

How the results depend on the processing

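The 14 other fits (RLE, upper quartile or no factors, no filter, 5 CPM in 3 libraries, DESeq2, limma-voom, replicate block, each library left out) called between 21 and 24 of the 33 factors up, and 20 of the 23 that rose kept the call in all 14. At an adjusted p of 0.01 the count was 21 (52 for other pathway genes), and with at least a 1.5-fold change it was 14. Factors that fell numbered 1 in most fits, 0 to 1 when a library was left out, and 0 at an adjusted p of 0.01 or with at least 1.5-fold. Other pathway genes that rose numbered 55 to 69 over these fits and 35 with at least 1.5-fold. Those that fell numbered 3 to 5 when a library was left out, 3 at an adjusted p of 0.01 and 2 with at least 1.5-fold. With at least 1.5-fold, calls over all genes numbered 4035, of which 1879 were up, against 6457 and 3274. Only NOC4L, which was not called, changed sign, to -0.0029 with the 5 CPM filter, -0.0995 without si-MYLK-AS1 replicate 1 and -0.0101 without si-NC replicate 1 (-0.0995 to 0.153 with 1 library left out). Replicate numbers showed no clear pairing: the same-number correlations of deviations were -0.122, 0.138 and 0.0997. With 3 libraries a group, such correlations cannot exclude a pairing. With the replicate block 24 factors rose (PES1 was added, adjusted p = 0.0492), 6521 genes were called, and 68 other pathway genes rose and 5 fell. Over these fits the median log2 fold change ran from -0.0538 to 0.006 over all genes and from 0.46 to 0.56 over the set. A level of 3 reads was worth 0.274 to 0.410 CPM, counting error only.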

Other observations

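The 3' UTRs of the ribosome biogenesis factors were searched for AGCTTA, a word chosen after the data were seen, when several of the genes most lowered by the knockdown were found to hold it. In the longest annotated 3' UTR (GENCODE release 29, sense strand) it was present in 6 of the 33 tested factors (18.2%), against 29.4% of 11637 tested genes with a 3' UTR. LAS1L, the single factor that fell, holds it at 2 places in a 3' UTR of 4269 bases. The other 5 with the word were POLR1A (2 places, log2 fold change 0.24, not called), and DDX21 (0.74), GRWD1 (0.61), NCL (0.41) and NIP7 (0.89), the 4 that rose. Of the factors, 4 of 6 with the word and 19 of 27 without it rose, and 1 of 6 and 0 of 27 fell. Over all tested genes with a 3' UTR, 22.3% with the word and 26.0% without it rose, and 23.7% and 18.5% fell. Longer 3' UTRs were not matched, and since the word was picked on these data the shares are descriptions.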
